A study of Mus musculus with 12 samples.

Results

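The 10 endothelial markers described here are *Pecam1*, *Cdh5*, *Cldn5*, *Kdr*, *Flt1*, *Tek*, *Tie1*, *Egfl7*, *Esam* and *Emcn*, chosen by name as genes that mark the cells lining blood vessels, and all 10 were found among the 18180 genes measured. They were measured by RNA sequencing in 12 libraries of sorted glioblastoma (GBM) cells, in which 3 mouse tumors named T3, T4 and T5 each gave PDGFRA+, PDGFRA-, GAL1+ and GAL1- cells (n = 3 libraries for each population). GAL1 is galectin-1, the product of *Lgals1*, and PDGFRA is a growth factor receptor of oligodendrocyte progenitors. All 4 populations share 1 genotype and 1 way of starting the tumor, namely Cre-dependent overexpression of human *EGFR* with loss of *Cdkn2a* (-/-) and a Cre-dependent luciferase reporter, on a mixed background (C57Bl/6J, 129S4, FVBN/J and Balb/cJ in the labels, to which the methods add SJL), with tumors begun by a Cre lentivirus injected into the adult brain and taken at end stage. The labels give no untreated control, so the populations were compared only with each other. The labels call every library EGFR+ GBM cells, so no population was sorted as endothelium. The study describes the sorted cells as CD45-, while its sorting methods name antibodies to EGFR and to PDGFR or galectin-1.

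Endothelial cells hold the vessel wall together with adhesion molecules at their borders (*Pecam1*, *Cdh5*, *Cldn5*, *Esam*), read vascular growth signals through receptor tyrosine kinases for the VEGF family (*Kdr*, *Flt1*) and for the angiopoietins (*Tek*, with its relative *Tie1*), and carry secreted or surface proteins that few other cells make (*Egfl7*, *Emcn*). In the brain the same cells form the blood-brain barrier, and GBM is known for dense and abnormal vessels. *Pecam1* is also made by leukocytes and platelets, and *Flt1* by monocytes and macrophages, so neither gene belongs to endothelium alone.

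Depth was 9851175 to 24117541 reads per library as recovered from the deposited values, and the 10 markers together took 1041 to 6169 of those reads. *Pdgfra* was at 10.3 ± 0.45 log2 CPM in PDGFRA+ cells and 8.70 ± 1.38 in PDGFRA- cells (mean ± SD, n = 3), higher in PDGFRA+ cells in all 3 tumors but without passing the test (3.03-fold, adjusted p = 0.249). *Lgals1* was 2.44-fold higher in GAL1+ than in GAL1- cells (adjusted p = 0.000967). The mouse *Egfr* gene was at 10.6, 10.5 and 10.4 log2 CPM in GAL1- cells of T3, T4 and T5. In GAL1+ cells it was 4.28-fold lower, at 9.02, 8.53 and 7.68 (adjusted p = 0.000461). It was at 8.16 in PDGFRA- cells of T5, beside 10.18 and 10.02 in those of T3 and T4. The labels call all of these cells EGFR+. The study's gate was human EGFR protein, while these values are RNA counted on the mouse gene. How far transcripts of the human *EGFR* transgene were counted there was not tested. *Ptprc*, which encodes CD45, was measured in every library, at 3.70 to 5.18 log2 CPM in GAL1- cells and at 8.21 or more in GAL1+ cells. The PDGFRA- library of T5 fell within the range of the GAL1+ libraries in its leukocyte markers. Their mean was 7.71 log2 CPM there, beside 7.52 to 7.89 in GAL1+ cells and 5.57 and 6.23 in the other PDGFRA- libraries. The comparisons that use this library were also made without it.

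GAL1- cells held less RNA of every one of the 10 markers than the other 3 populations. In GAL1+ cells all 10 were above GAL1- cells, from 2.73-fold (*Egfl7*) to 11.4-fold (*Emcn*), all 10 were higher in PDGFRA+ than in GAL1- cells, and all 10 were higher in PDGFRA- than in GAL1- cells. Between PDGFRA+, PDGFRA- and GAL1+ cells 1 marker in 1 of the 3 comparisons passed the test, *Tie1* in PDGFRA- against GAL1+ cells. The median log2 fold change over the 10 markers was 2.69 for GAL1+ over GAL1- cells, beside -0.03 over all genes. It was 2.12 for PDGFRA+ and 1.88 for PDGFRA- over GAL1- cells, and these 3 comparisons share the GAL1- libraries. A test was passed at an adjusted p under 0.05 (limma with the tumor as a term, Benjamini-Hochberg over all 18180 genes). By that rule 28.9% of all genes were higher and 29.3% lower in GAL1+ than in GAL1- cells, 8.26% were higher and 0.011% lower in PDGFRA+ than in GAL1- cells, and 16.2% were higher and 6.88% lower in PDGFRA- than in GAL1- cells. These are bulk libraries, in which fewer endothelial cells and less RNA per cell cannot be told apart.

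**Figure D1:**
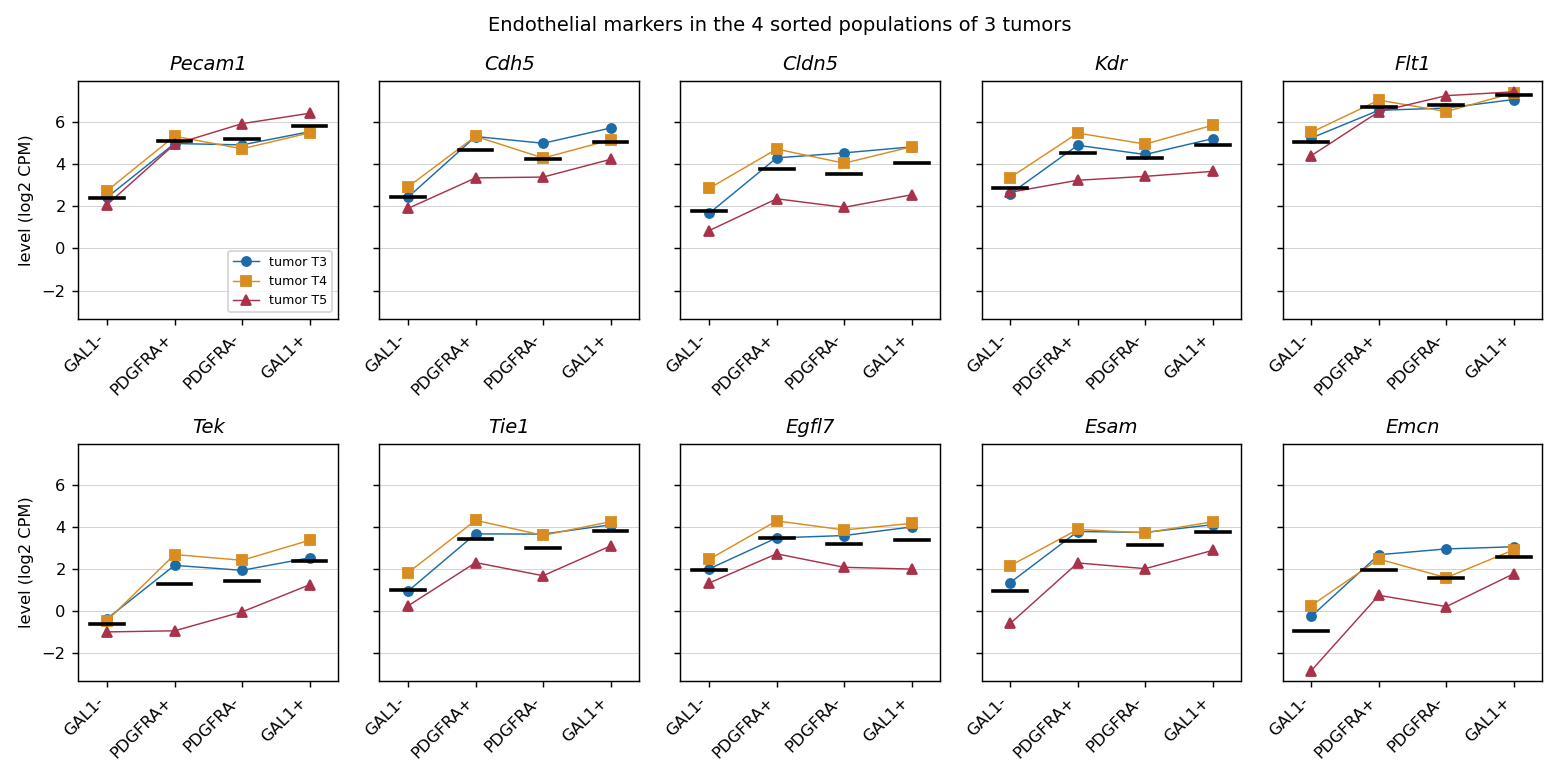
Level of each endothelial marker (log2 CPM, vertical axis) in the 4 sorted populations (horizontal axis), with a point for each tumor joined by a line and a black bar for the mean of 3 libraries. GAL1- cells have the lowest mean in all 10 panels, and tumor T5 lies below T3 and T4 in most panels other than those of *Pecam1* and *Flt1*.

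Of the adhesion molecules, *Pecam1* (CD31) was at 2.42, 2.74 and 2.08 log2 CPM in GAL1- cells of T3, T4 and T5. It was at 4.98, 5.33 and 4.95 in PDGFRA+ cells, at 4.91, 4.73 and 5.92 in PDGFRA- cells and, in GAL1+ cells, at 5.54, 5.49 and 6.41. The GAL1- libraries lay below all 9 others, and GAL1+ cells were 10.5-fold higher (log2 fold change 3.40 ± 0.33 SE, adjusted p = 5.08e-05). *Cdh5*, which encodes VE-cadherin of the endothelial adherens junction, was at 2.43, 2.92 and 1.90 log2 CPM in GAL1- cells and at 5.71, 5.15 and 4.23 in GAL1+ cells, again without overlap (6.10-fold, adjusted p = 7.26e-05). Its levels in PDGFRA+ cells were 5.31, 5.32 and 3.35 log2 CPM, so that its lowest library there, of T5, was still above all 3 GAL1- libraries. *Cldn5*, the main claudin of brain endothelial tight junctions, was at 1.67, 2.85 and 0.85 log2 CPM in GAL1- cells and at 4.82, 4.83 and 2.55 in GAL1+ cells. Here the groups overlapped, because GAL1- cells of T4 lay above GAL1+ cells of T5, yet within each tumor GAL1+ cells were higher (log2 differences of 3.15, 1.97 and 1.70 in T3, T4 and T5). *Esam*, an adhesion molecule of endothelial cells and platelets, was at 1.35, 2.16 and -0.58 log2 CPM in GAL1- cells and at 4.10, 4.24 and 2.88 in GAL1+ cells, with no overlap (6.80-fold, adjusted p = 4.55e-05).

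The VEGF receptors rose alike between these populations but spread differently over the tumors. *Flt1*, which encodes VEGF receptor 1, was at 5.24, 5.51 and 4.40 log2 CPM in GAL1- cells of T3, T4 and T5 and at 7.07, 7.38 and 7.43 in GAL1+ cells. *Kdr*, which encodes VEGF receptor 2, the main signaling receptor for VEGF-A, was at 2.59, 3.37 and 2.67 in GAL1- cells and at 5.21, 5.85 and 3.66 in GAL1+ cells. Neither gene overlapped between these populations, and the fold changes were alike at 4.73 for *Flt1* (log2 fold change 2.24 ± 0.29 SE, adjusted p = 0.000179) and 4.08 for *Kdr* (2.03 ± 0.30 SE, adjusted p = 0.000396). Within T5, however, *Kdr* was 0.99 log2 units higher in GAL1+ than in GAL1- cells and *Flt1* 3.03, whereas in T3 *Kdr* had the larger difference, at 2.62 against 1.83. The 250 bases before the start of each receptor gene are shown as a description of these genes. ETS transcription factors, which act at many endothelial promoters, bind sites built on the letters GGAA, and every GGAA or its complement TTCC is in capitals. The sequences are RefSeq's on GRCm38.p6, given 5′ to 3′ on the strand of the gene, and the build differs from the mm39 assembly to which the reads were aligned. *Flt1* lies on the minus strand at chr5:147726012-147726261 and *Kdr* on the minus strand at chr5:75978456-75978705.
Flt1: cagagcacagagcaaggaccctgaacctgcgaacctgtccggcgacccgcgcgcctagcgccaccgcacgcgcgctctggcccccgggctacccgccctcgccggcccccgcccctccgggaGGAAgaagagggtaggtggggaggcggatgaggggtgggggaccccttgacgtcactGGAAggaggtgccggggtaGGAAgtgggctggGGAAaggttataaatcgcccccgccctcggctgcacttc
Kdr: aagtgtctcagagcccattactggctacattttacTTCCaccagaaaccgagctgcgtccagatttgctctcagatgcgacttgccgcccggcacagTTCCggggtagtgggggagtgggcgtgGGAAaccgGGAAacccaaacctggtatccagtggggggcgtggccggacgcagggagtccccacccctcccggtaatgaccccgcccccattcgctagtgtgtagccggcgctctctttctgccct

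The angiopoietin receptor and its relative were also lowest, by their means, in GAL1- cells. *Tek*, which encodes the angiopoietin receptor TIE2, was at -0.36, -0.45 and -0.98 log2 CPM in GAL1- cells of T3, T4 and T5, which is 12 to 21 reads a library. It was at 2.17, 2.69 and -0.93 in PDGFRA+ cells, at 1.94, 2.41 and -0.03 in PDGFRA- cells and, in GAL1+ cells, at 2.53, 3.36 and 1.25. The PDGFRA+ cells of T5, with 9 *Tek* reads, fell within the range of the GAL1- libraries, while the GAL1+ libraries all lay above it (7.89-fold over GAL1- cells, adjusted p = 0.000702). *Tie1*, an orphan receptor that pairs with TIE2, was at 0.95, 1.83 and 0.25 log2 CPM in GAL1- cells, at 3.67, 4.31 and 2.30 in PDGFRA+ cells and at 4.09, 4.25 and 3.10 in GAL1+ cells. GAL1- cells lay below both without overlap, and the rise of *Tie1* was 6.96-fold in GAL1+ (adjusted p = 4.55e-05) and 5.33-fold in PDGFRA+ cells (adjusted p = 0.00164). In PDGFRA- cells *Tie1* was at 3.66, 3.60 and 1.68, and there T5 lay below GAL1- cells of T4. *Tek* lies on the plus strand, with the window before its start at chr4:94739039-94739288, and *Tie1* on the minus strand at chr4:118489850-118490099, marked in the same way.
Tek: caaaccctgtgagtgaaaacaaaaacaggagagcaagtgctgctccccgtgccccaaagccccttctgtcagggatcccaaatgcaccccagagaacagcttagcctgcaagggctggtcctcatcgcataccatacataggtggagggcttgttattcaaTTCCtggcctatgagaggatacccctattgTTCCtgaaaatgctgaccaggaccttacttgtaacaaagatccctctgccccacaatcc
Tie1: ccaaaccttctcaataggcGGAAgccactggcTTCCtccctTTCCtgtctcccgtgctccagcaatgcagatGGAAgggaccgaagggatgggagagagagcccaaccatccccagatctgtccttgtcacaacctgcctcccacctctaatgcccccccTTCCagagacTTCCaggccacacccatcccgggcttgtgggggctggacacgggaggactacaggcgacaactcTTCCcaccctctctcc

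Searched on both strands, GGAA occurred 7 times in the *Tie1* window, 4 times each in those of *Flt1* and *Kdr*, and 2 times in that of *Tek*. The longer GGAAGT, every match of which also counts as a GGAA, occurred once in each of *Tie1*, *Flt1* and *Kdr* and was not found in *Tek*. The table of promoters held 9 windows of 7 of the 10 markers, of which 8 held GGAA and 5 held GGAAGT. *Egfl7* has more than 1 start there and held GGAAGT before more than 1 of them, so the windows are not separate genes. Among 32851 windows of all genes, 93.4% held GGAA, at a mean of 2.91 a window, and 19.7% held GGAAGT. The *Cldn5* window, with the same search, held neither. A match in these letters is a description of the window and no measure of binding.

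The secreted and surface markers were the extremes of the set. *Egfl7*, a secreted protein of endothelial cells whose gene also hosts miR-126, was at 2.01, 2.46 and 1.34 log2 CPM in GAL1- cells of T3, T4 and T5 and at 3.99, 4.16 and 1.997 in GAL1+ cells. GAL1+ cells of T5 thus lay below GAL1- cells of T3 and T4, and *Egfl7* had the smallest rise of the 10 (1.45 ± 0.25 SE on the log2 scale, adjusted p = 0.000946). In the GENCODE M21 annotation 7.37% of its exon bases are shared with another gene on the same strand and 1.79% with *Agpat2* on the opposite strand, so its counts are less certain than those of the other markers, whose exons share no bases with another gene. *Emcn*, which encodes the sialomucin endomucin of capillary and venous endothelium, was at -0.25, 0.27 and -2.82 log2 CPM in GAL1- cells and at 3.05, 2.91 and 1.78 in GAL1+ cells. It had the largest rise (3.51 ± 0.41 SE, adjusted p = 0.000103), but the GAL1- library of T5 held 3 reads of it, and on a scale of log2(CPM + 1) the difference was 2.08. On that scale *Tek* likewise moved from 2.98 to 1.93.

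In PDGFRA+ over GAL1- cells the log2 fold changes ran from 1.56 (*Egfl7*) to 2.90 (*Emcn*), with adjusted p from 0.00164 to 0.0432, the last for *Tek*. The groups were apart for 7 markers here, for 8 in GAL1+ over GAL1- cells and for 5 in PDGFRA- over GAL1- cells, where 15.3%, 30.1% and 17.7% of all genes were apart in that direction. *Pdgfra* itself, in contrast, had a log2 fold change of -0.25 ± 0.41 SE between PDGFRA+ and GAL1- cells (95% interval -1.18 to 0.67, adjusted p = 0.786), and none of 8 oligodendrocyte progenitor markers passed the test between them. Leaving out tumor T3 left no gene called in PDGFRA+ over GAL1- cells, members included (their adjusted p from 0.0805 to 0.399), and in a model without the tumor term 2 markers remained past the threshold there, *Pecam1* and *Flt1*, as in PDGFRA- over GAL1- cells. In PDGFRA- over GAL1- cells 6 markers were called without T3 and 7 without T4. All 10 log2 fold changes over GAL1- cells stayed above 0 in these fits.

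**Figure D2:**
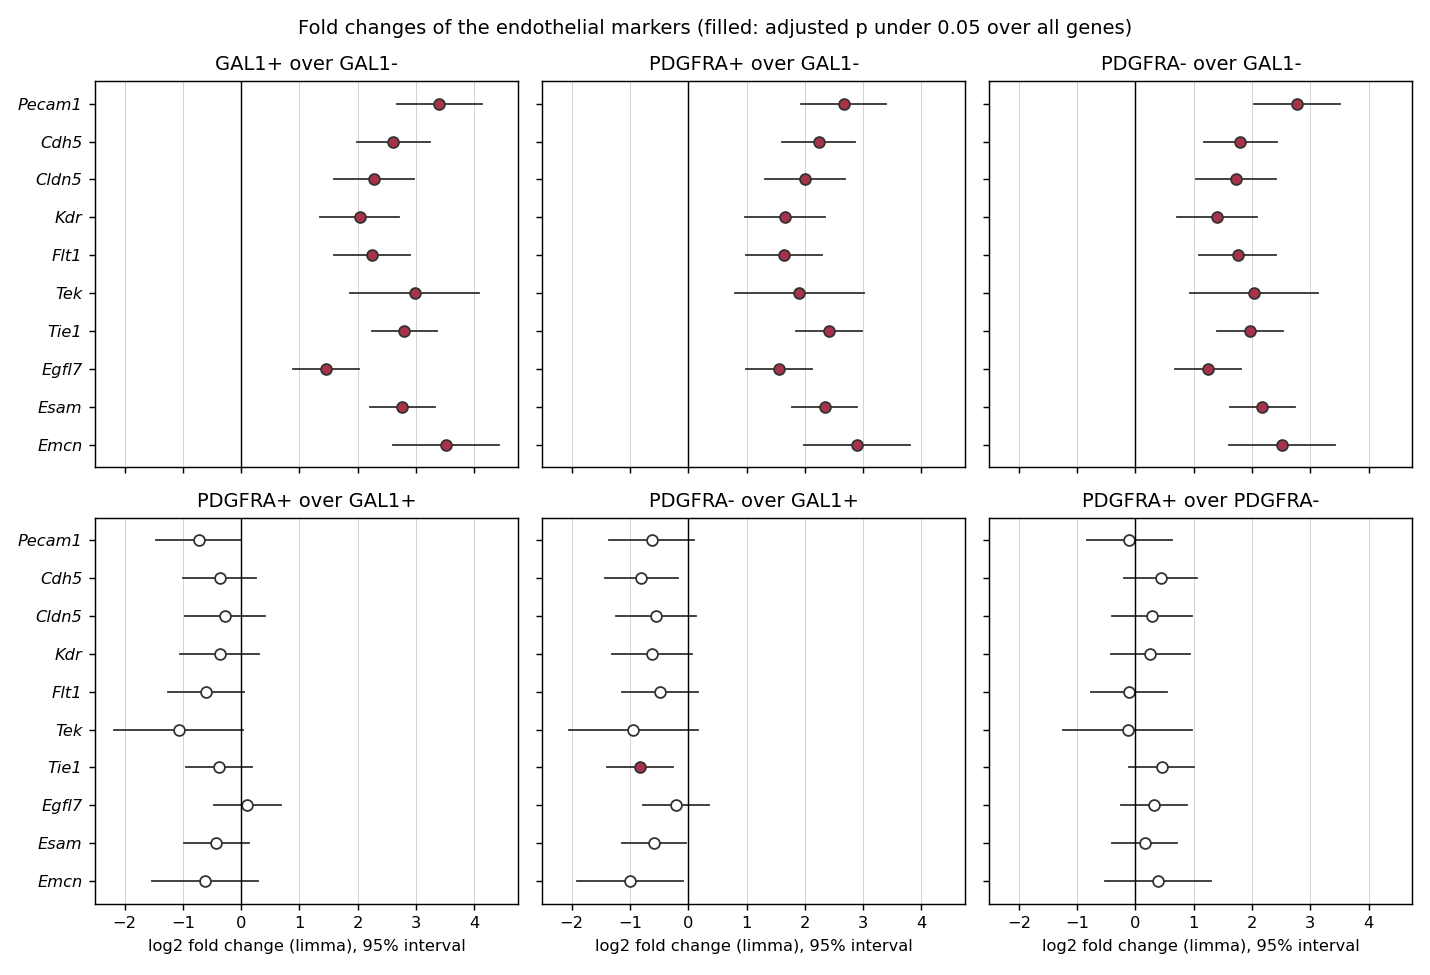
Log2 fold change of each endothelial marker (horizontal axis) with its 95% interval from limma, for the 6 pairs of populations. Filled points passed an adjusted p under 0.05 over all genes, which holds for all 10 markers in the 3 comparisons with GAL1- cells and for *Tie1* alone in the others.

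Between the PDGFRA+ and PDGFRA- cells no marker passed the test, and neither did any other gene (0% of genes higher and 0% lower, with 2137 genes at an unadjusted p under 0.05 and a smallest adjusted p of 0.181, by limma). The log2 fold changes of the markers were -0.13 (*Tek*) to 0.45 (*Tie1*), 7 of them above 0, and none had an unadjusted p under 0.05. The intervals leave room for differences of some size. For *Tie1* the 95% interval was -0.11 to 1.01, for *Pecam1* -0.84 to 0.63 and for *Tek* -1.23 to 0.98. *Pecam1* was 0.98 log2 units lower in PDGFRA+ than in PDGFRA- cells of T5 but 0.60 higher in T4, and without the PDGFRA- library of T5 the sign of its estimate turned (0.24), as did that of *Flt1* (from -0.11 to 0.23).

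No marker passed the test between PDGFRA+ and GAL1+ cells, although 20.9% of all genes were higher and 17% lower in PDGFRA+ cells. The median over the markers was -0.41, with 9 of 10 below 0 and *Egfl7* at 0.11, and no marker had an unadjusted p under 0.05. *Pecam1* had a log2 fold change of -0.73 (95% interval -1.46 to 0.0015, adjusted p = 0.104) and *Flt1* one of -0.60 (-1.26 to 0.054, adjusted p = 0.131), and these were the 2 markers whose libraries did not overlap, as for 22.5% of all genes in that direction. *Tek* had the widest interval, at -1.07 (-2.18 to 0.033). When each library was centered on its median instead, the median of all genes in this comparison moved from 0.0056 to -0.15 and the share of called genes that were higher in PDGFRA+ cells from 55.1% to 40.8%. The marker median was then -0.57, with none called.

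In PDGFRA- over GAL1+ cells all 10 markers were below 0, at a median of -0.63, and 1 was called, while 13.2% of all genes were higher and 6.91% lower. *Tie1* was at 3.66, 3.60 and 1.68 log2 CPM in PDGFRA- cells of T3, T4 and T5 beside 4.09, 4.25 and 3.10 in GAL1+ cells. It was lower in each tumor though the groups overlapped (log2 fold change -0.83 ± 0.25 SE, adjusted p = 0.0445), and leaving out any 1 tumor, or the PDGFRA- library of T5, raised its adjusted p to between 0.0998 and 0.200. The next lowest adjusted p was that of *Cdh5*, at 0.0673. With each library centered on its median, the share of called genes that were higher in this comparison moved from 65.6% to 46.9%, and in PDGFRA- over GAL1- cells from 70.2% to 51.4%.

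The GAL1 sort and the PDGFRA sort differed in the markers. The difference of the effects, GAL1+ over GAL1- minus PDGFRA+ over PDGFRA-, was above 0 and past the threshold for all 10, where 26.2% of all genes were higher and 24.9% lower. It ran from 1.13 ± 0.36 SE for *Egfl7* (adjusted p = 0.0247) to 3.50 ± 0.46 SE for *Pecam1* (adjusted p = 0.00039) on the log2 scale. The sign was positive in each of the 3 tumors for every marker, with the smallest value, 0.020, in T5 for *Egfl7*.

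Among themselves the markers split by tumor. *Cdh5*, *Cldn5*, *Kdr*, *Tek*, *Tie1*, *Egfl7*, *Esam* and *Emcn* were lowest in T5 in 31 of 32 combinations of marker and population, the exception being *Kdr* in GAL1- cells, where T5 lay between T3 and T4. Taken as T5 minus the mean of T3 and T4, their median difference was -1.02 log2 units in GAL1- cells, -1.89 in PDGFRA+ cells, -1.83 in PDGFRA- cells and -1.49 in GAL1+ cells. *Pecam1* and *Flt1* did otherwise. *Pecam1* was highest in T5 in PDGFRA- and GAL1+ cells, by 1.10 and 0.90 log2 units over the mean of T3 and T4, and *Flt1* by 0.67 and 0.21, while both were lowest in T5 in the PDGFRA+ and GAL1- cells. Some of these places rest on small margins. *Flt1* in GAL1+ cells of T5 was 0.048 above the higher of T3 and T4. In PDGFRA+ cells T5 differed from the lower of T3 and T4 by -0.033 for *Pecam1* and -0.0675 for *Flt1*. The split of the set into 8 and 2 was made after these values were seen, and since T5 is a single tumor it carries no test.

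**Figure D3:**
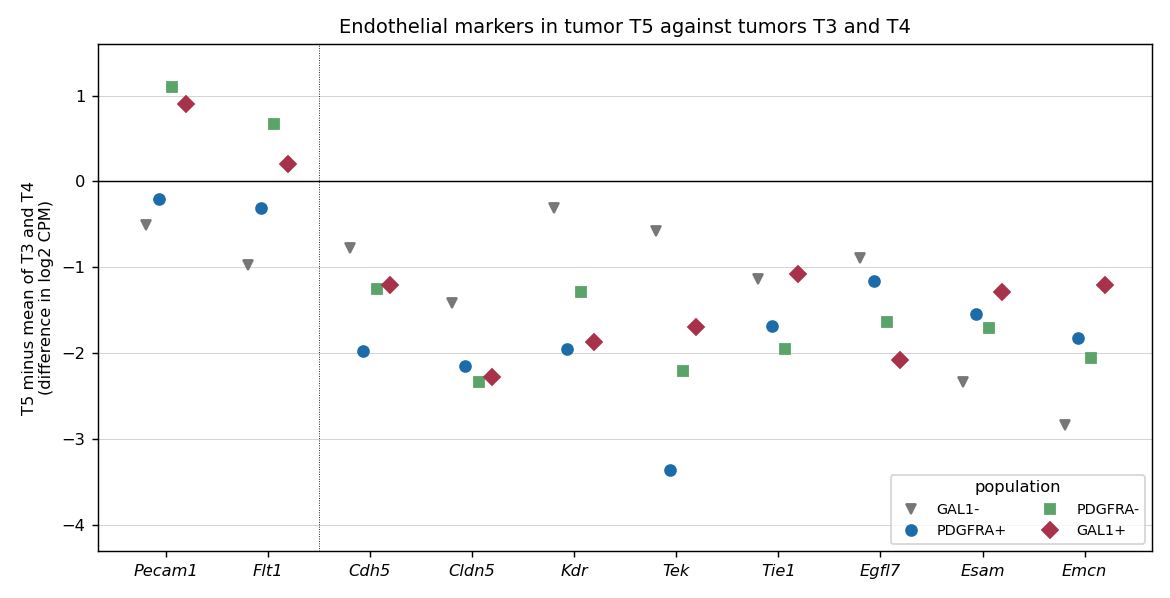
Difference in log2 CPM between tumor T5 and the mean of tumors T3 and T4 (vertical axis) for each endothelial marker (horizontal axis), with 1 point for each sorted population. *Pecam1* and *Flt1*, left of the dotted line, reach 1.10 and 0.67 in PDGFRA- cells, and the points of the 8 other markers are all below 0.

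*Pecam1* stood 1.14 to 1.35 log2 units above the mean of the 8 other markers in the PDGFRA+, PDGFRA- and GAL1+ cells of T3 and T4, and 2.94, 4.08 and 3.73 units above it in those of T5. In the same populations *Flt1* stood 2.77 to 3.04 units above that mean in T3 and T4 and 4.48, 5.41 and 4.75 in T5. The tumors were closer in GAL1- cells. There *Pecam1* stood 1.12, 0.81 and 1.75 units above that mean in T3, T4 and T5, and *Flt1* 3.94, 3.58 and 4.07. These offsets also carry the lengths of the genes, so they are compared only between libraries. The mean of the 12 pan-leukocyte markers, taken on its own, was at 6.23, 5.57 and 7.71 log2 CPM in PDGFRA- cells of T3, T4 and T5 and at 7.52, 7.79 and 7.89 in GAL1+ cells, highest in T5 in both as *Pecam1* and *Flt1* were. In the other populations T5 lay between T3 and T4, at 5.33, 6.64 and 6.55 in PDGFRA+ cells and at 2.46, 3.87 and 3.62 in GAL1- cells. The tumors also differed in the Y-linked gene *Uty*, whose SD over the 3 tumors was 5.56 to 6.22 log2 units within each population. With population means subtracted, *Uty* followed the mean of the 10 markers (Pearson r = 0.966 over the 12 libraries). That mean was lowest in T5 in every population. The part of the leukocyte markers or of *Uty* in the split of the markers was not tested. Differences that go with T5, a single tumor, cannot be told apart from each other. After the population means were subtracted, each of the 8 had a Pearson r of 0.86 to 0.97 with the mean of the other 9 markers over the 12 libraries, *Flt1* one of 0.18 and *Pecam1* one of -0.35. These 12 points come from 3 tumors, and the coefficients are descriptions with no test.

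Per kilobase of exon, the scale used here to order the genes by level, *Cldn5* was highest in GAL1+ cells at 14.7 ± 9.16 CPM per kb (SD, n = 3), followed by *Flt1* at 11.7 ± 1.54, *Pecam1* at 9.45 ± 3.68 and *Cdh5* at 8.46 ± 4.02. *Esam*, *Kdr*, *Egfl7* and *Tie1* followed between 5.05 and 3.02 CPM per kb, and *Tek* and *Emcn* were lowest at 1.31 and 1.19. Every pair of neighbors in this order overlapped within their SDs. In GAL1- cells *Cldn5* (2.87 ± 1.99) and *Flt1* (2.58 ± 0.92) again led, and *Tek* and *Emcn* were at 0.143 and 0.135 CPM per kb. Exon lengths, from 1416 bases for *Cldn5* to 13504 for *Flt1*, are those of the GENCODE M21 annotation of GRCm38.

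The rest of the endothelial program moved in the same direction with exceptions. Of 25 other pan-endothelial genes, 19 were higher and 1 lower in GAL1+ than in GAL1- cells (median log2 fold change 2.01). *Cd34*, a sialomucin of endothelial and hematopoietic progenitor cells, had a log2 fold change of 3.97. *Sox17*, an endothelial transcription factor, had the largest, 4.15, which depends on the voom offset since its GAL1- libraries held 1 to 4 reads. *Calcrl*, a receptor subunit for adrenomedullin, was the exception, at 5.40 to 5.80 log2 CPM in GAL1- and 3.50 to 4.54 in GAL1+ cells (log2 fold change -1.75 ± 0.18 SE, adjusted p = 6.96e-05). In PDGFRA+ over GAL1- cells 14 of the 25 were higher and none lower, and in PDGFRA+ over GAL1+ cells 1 was higher and 3 were lower.

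Blood-brain barrier genes held both directions, with 13 of 18 higher and 2 lower in GAL1+ than in GAL1- cells (median 1.84). *Slco1a4*, a transporter of organic anions at the barrier, and *Ly6a* rose by 3.74 and 3.84 log2 units. *Mfsd2a*, a lipid transporter of brain endothelium, fell by 1.98 log2 units (adjusted p = 0.000129) from 4.58 to 5.74 log2 CPM in GAL1- cells to between 2.87 and 3.79 in GAL1+ cells, and *Slc7a5*, a large amino acid transporter found in many dividing cells, fell by 1.03. All 8 oligodendrocyte progenitor markers were lower in the same comparison, and which cells the *Mfsd2a* RNA came from was not tested. Of 12 tip cell and tumor vessel genes 8 were higher and 1 lower, with *Cxcr4* (3.74), which leukocytes also carry, and *Dll4* (2.61), the Notch ligand of tip cells, highest and *Unc5b* (-0.67) lower. Of 12 endothelial transcription factors measured 9 were higher and none lower, *Sox17* and *Fli1* (3.88), an ETS factor shared with blood cells, leading. *Erg*, an ETS factor of endothelium, had a log2 fold change of 0.48 ± 0.40 SE (adjusted p = 0.327) and *Ets1* one of -0.33 ± 0.21 SE (adjusted p = 0.207).

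Ligands and co-receptors of the marker receptors were mixed, with 5 of 9 measured genes higher and 1 lower in GAL1+ than in GAL1- cells (median 0.96). *Vegfa*, the chief ligand of both VEGF receptors, was at 9.03, 8.93 and 8.50 log2 CPM in GAL1- cells of T3, T4 and T5 and at 9.26, 9.41 and 9.61 in GAL1+ cells, a rise of 1.52-fold (adjusted p = 0.0227). *Pgf*, placental growth factor, which binds the product of *Flt1*, rose 3.15-fold (adjusted p = 0.00154). *Angpt1*, the activating ligand of TIE2, was lower in GAL1+ cells by 1.76 log2 units (adjusted p = 0.000751), at -0.57 to 0.59 log2 CPM beside 1.43 to 2.22. *Angpt2*, the other main ligand of TIE2, had a log2 fold change of 0.96 ± 0.45 SE (adjusted p = 0.0901). The neuropilin co-receptors *Nrp1* and *Nrp2* rose by 2.32 and 2.38 log2 units and *Flt4*, which encodes VEGF receptor 3, by 2.94. *Vegfb* and *Vegfc* did not pass the test (log2 fold changes -0.07 and -1.30, adjusted p = 0.733 and 0.0663). In PDGFRA+ over GAL1+ cells, where no marker passed, *Angpt1* (1.42) and *Vegfc* (1.85) were higher and *Nrp1* (-1.04) and *Nrp2* (-1.08) lower.

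Among markers of other cells that a sort could hold, most of those of mural cells, fibroblasts, leukocytes, microglia and macrophages rose with the endothelial markers. Those of neural cells did not. Of 11 mural cell markers, genes of the pericytes and smooth muscle around vessels, 10 were higher and none lower in GAL1+ than in GAL1- cells (median 2.36), led by *Vtn* (2.91) and *Abcc9* (2.79). Their summed level was 38.8 to 59.0 CPM in GAL1- cells, 91.4 to 249 in PDGFRA+ cells, 124 to 279 in PDGFRA- cells and, in GAL1+ cells, 171 to 291. All 12 pan-leukocyte markers were higher as well (median 4.45), with summed levels of 89.4 to 244 CPM in GAL1- cells and 3073 to 4255 in GAL1+ cells. The 10 endothelial markers summed to 42.3 to 92.7 CPM in GAL1- cells and 321 to 407 in GAL1+ cells. Without *Pecam1* and *Flt1*, which leukocytes also make, the sums were 16.9 to 40.6 and 62.9 to 195 CPM. The markers left in these sums are not all of endothelium alone either, since platelets also carry *Esam*. Of the erythroid markers 1 of 5 measured passed (*Hba-a1*, 1.06, higher in 2 of 3 tumors), of 4 platelet and megakaryocyte markers *Pf4*, which macrophages share, was higher and *Gp1bb* lower, and 6 of 8 fibroblast markers were higher (median 1.71). All 9 microglia markers and all 8 macrophage markers were higher (medians 4.52 and 6.20). All 8 oligodendrocyte progenitor markers were lower (median -2.92), as were 3 of 6 astrocyte and 3 of 7 neuron markers, with none of either higher.

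In PDGFRA+ over GAL1+ cells the lists parted in their values. All 12 pan-leukocyte markers were lower in PDGFRA+ cells (median -1.57), as were 5 of 9 microglia markers (median -1.56) and 7 of 8 macrophage markers (median -1.75), while none of the 10 endothelial markers (median -0.41) and none of 11 mural cell markers (median -0.61) was called. No test of 1 list against another was made. Against GAL1- cells, PDGFRA+ cells had 12 of 12 pan-leukocyte markers higher (median 2.88), 10 of 10 endothelial markers (2.12) and 5 of 11 mural markers (1.89). The part of these other cells in the levels of the endothelial markers was not tested.

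**Figure D4:**
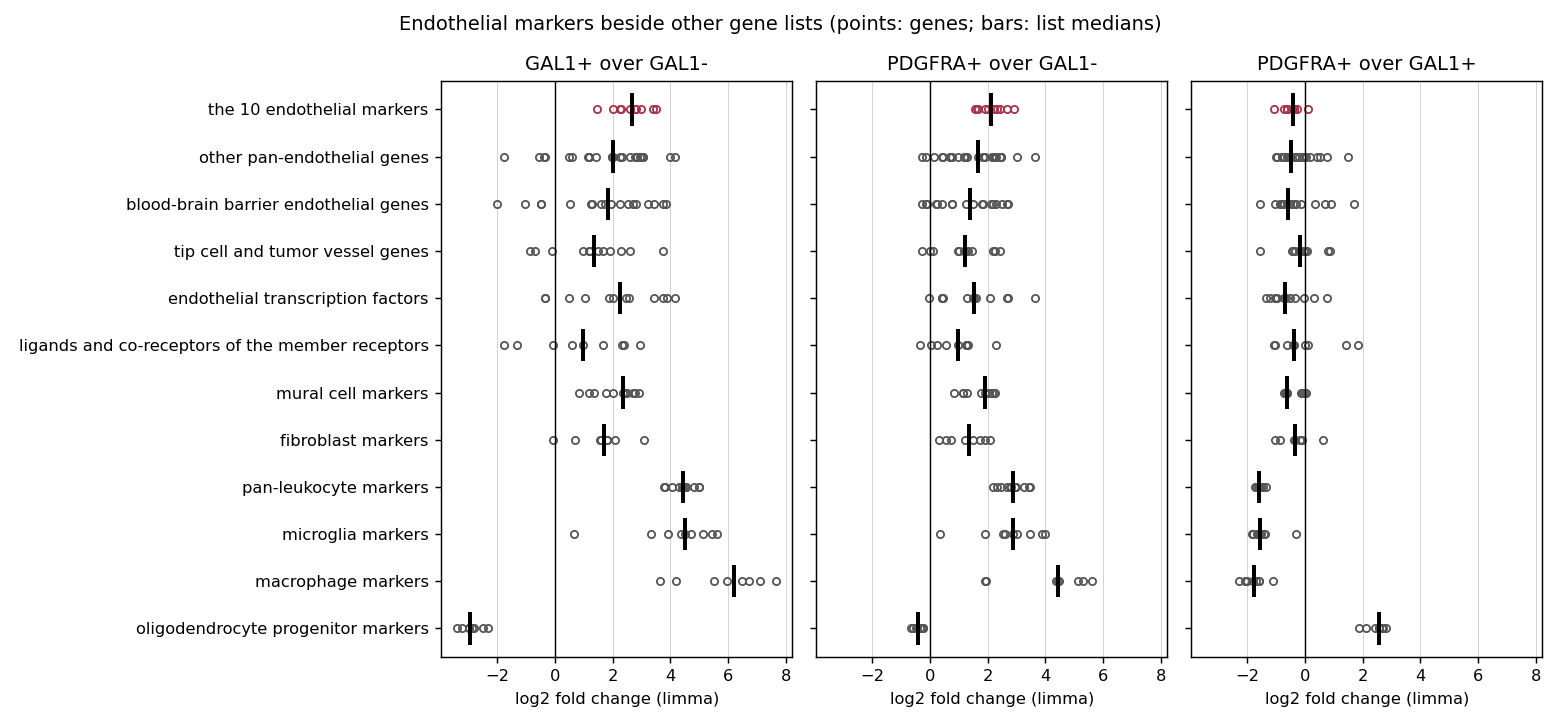
Log2 fold changes from limma (horizontal axis) of the genes of 12 lists (vertical axis) in 3 comparisons, with a point for each gene and a bar at the list's median. The endothelial markers lie between 1.45 and 3.51 in GAL1+ over GAL1- cells and between -1.07 and 0.11 in PDGFRA+ over GAL1+ cells, where the pan-leukocyte points all lie below -1.3.

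The genes whose levels followed the mean of the 10 markers most closely over the 12 libraries were *Slco1c1* (Pearson r = 0.992), *Adgrl4* (0.990), *Adgrf5* (0.989), *Slco1a4* (0.987), *Ptprb* (0.983), *Ecscr* (0.980), *Pdgfrb* (0.979), *Ednra* (0.978), *Robo4* (0.976) and *Cgnl1* (0.971). Of these 10, 5 stand on the pan-endothelial list, 2 on the blood-brain barrier list and *Pdgfrb*, the receptor that marks pericytes, on the mural list. *Slco1c1*, a thyroid hormone transporter of the barrier, was at 1.17 ± 0.87 log2 CPM in GAL1- cells and at 4.40 ± 0.64 in GAL1+ cells (SD, n = 3). After the population means were subtracted, the 10 closest were *Kcnq1*, *Slco1a4*, *Fos*, *Adgrl4*, *Slco1c1*, *Dll4*, *Mmrn2*, *Adgrf5*, *Uty* and *Pdgfrb* (r from 0.991 to 0.965), of which *Slco1a4*, *Adgrl4*, *Slco1c1*, *Adgrf5* and *Pdgfrb* were in the first 10 too. This second list holds a Y-linked gene, *Uty*, and an immediate early gene, *Fos*. The libraries of a tumor share their animal and the 12 points share the library scaling, so the coefficients are descriptions and carry no test.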

How the data were processed

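Total RNA of each sorted population (1 ng, stranded total RNA kit) was sequenced, and per the labels and the methods the authors trimmed reads with fastp, aligned them to mm39 with STAR, counted exons with featureCounts, with multiply mapped reads as fractions, and kept genes above 1 CPM in at least 3 samples. Values are the log2 CPM that the authors deposited, made by voom (offset 0.5) with TMM scaling, for 18180 genes in 12 libraries. Reads were recovered from the lowest value of each library, but 41.3% to 59.2% were whole (within 0.01), so no count test was run. The floor of 3 reads covers counting error only.

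Populations were compared with limma 3.58.1 (R 4.3.3, trended eBayes, 6 residual degrees of freedom) with the tumor as a term, as in the study, in 6 contrasts and 1 difference of contrasts. All 12 libraries entered, and log2 fold changes carry the voom offset. The labels number the tumors 3, 4 and 5. Libraries of a tumor deviated together (mean r 0.486 over 18 pairs, lowest 0.140), which bears out the pairing. Nothing says outright that the tumors came from separate mice. The p-values and 95% intervals rest on 1 residual spread per gene. This spread was estimated over all 12 libraries after the population and tumor terms, and was moderated over all genes. A gene therefore has the same SE in all 6 contrasts, however far that contrast varied over these 3 tumors. The spread of levels between tumors is taken out by the tumor term. The fit was first checked on simulated data, and every value given comes from the deposited values. CPM per kb used GENCODE M21 exons of GRCm38. Sequences and motif counts came from RefSeq windows of 250 bases before each start, leaving out the 50 bases after it.

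Named genes are the 10 markers, the genes of *Lgals1*, *Pdgfra*, *Egfr* and *Ptprc* as checks of the sort, the ligands and co-receptors, the genes most like the markers among those with a mean of at least 0 log2 CPM, and from each list at most the 2 highest and 2 lowest called in GAL1+ over GAL1- cells and those opposite to the list. *Erg* and *Ets1* were named after their values were seen. The markers and the lists were chosen with earlier results of these data known. An item of the genotype that all populations share is not reported here.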

Additional observations from a re-analysis of the deposited data

How the results depend on the processing

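All 10 markers passed the test in GAL1+ over GAL1- cells under every alternative but the model without the tumor term, which was the fit with no replicate block and gave 8. That model gave 2 markers in PDGFRA+ over GAL1-, 2 in PDGFRA- over GAL1-, 0 in PDGFRA- over GAL1+ cells and 2 in the difference of the sorts. It treats libraries of a tumor as unrelated. In PDGFRA- over GAL1+ cells 1 marker was called in the reported fit and 2 with voom weights on recovered reads, 2 with a pseudocount of 1 CPM, 2 with libraries centered on their median and 2 with quantile normalization. Leaving out a tumor, or the PDGFRA- library of T5 (chosen after seeing the data), gave 0 to 3 there, 0 to 10 in PDGFRA+ over GAL1- 6 to 10 in PDGFRA- over GAL1- cells and 8 to 10 in the difference of the sorts. The pseudocount moved the marker median from 2.69 to 2.13 in GAL1+ over GAL1- and from 2.12 to 1.67 in PDGFRA+ over GAL1- cells, since low genes shrink on that scale. No called marker changed sign. Of those not called, *Tek* turned in PDGFRA+ over PDGFRA- cells with voom weights (0.058) and the pseudocount (0.017), and *Egfl7* in PDGFRA+ over GAL1+ cells with voom weights (-0.017), median centering (-0.051) and quantile normalization (-0.033). Over the leave-outs *Pecam1* ran from -0.45 to 0.33, *Flt1* from -0.43 to 0.23 and *Tek* from -0.33 to 0.26 in PDGFRA+ over PDGFRA- cells, and *Egfl7* from -0.20 to 0.42 in PDGFRA+ over GAL1+ cells. A filter that kept the 16183 genes above 1 log2 CPM in at least 3 libraries changed no call of a marker. *Tek* in PDGFRA+ over GAL1- cells was no longer called with the pseudocount, median centering or quantile normalization, nor in PDGFRA- over GAL1- cells with quantile normalization (9 markers called). Depth limits *Tek* and *Emcn*, with 12 to 21 and 3 to 28 reads in the GAL1- libraries.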
